A study of Homo sapiens with 6 samples.

Results

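Cytochrome P450 genes outside family 1 were followed in HCCLM3 cells, a human liver cancer line chosen for its tendency to spread. The members were the gene symbols of the deposited count table made of CYP, a family number, a subfamily letter and a gene number, without CYP1A1, CYP1A2 and CYP1B1. The rule found 43 such genes among the 34234 of the table, and 28 of them held enough reads to be tested. All cells were of this 1 line, grown in DMEM with serum. They had received lentivirus carrying either a control hairpin (shcontrol, 3 libraries) or a hairpin named for ATXN7L3 (shATXN7L3, 3 libraries), in medium without antibiotic that was replaced after 16 hours. The hairpin sequences and the time from virus to harvest are not given in the labels, which also do not say that replicates were separate cultures. The p-values therefore measure how far these libraries spread, and that spread may be technical only.

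Cytochrome P450 enzymes bind haem through a cysteine and use electrons and oxygen to place an oxygen atom on their substrate. Most sit in the endoplasmic reticulum and take electrons from the reductase POR, and a smaller mitochondrial set takes them from ferredoxin. The liver is the main site of the enzymes that clear drugs and of several that make or break down bile acids, fatty acids and vitamins, and hepatocellular tumours often lose part of that set.

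Library totals ran from 22376867 to 23915783 counts. ATXN7L3 itself stood at 36.4, 37.5 and 37.5 CPM in shcontrol and at 20.6, 20.5 and 19.5 CPM in shATXN7L3, where CPM is TMM-scaled counts per 1e6 counts (log2 fold change -0.88 ± 0.056 SE, edgeR adjusted p = 6.69e-10). An exact permutation test (two-sided, on log2 CPM) returned p = 0.1, below which 3 against 3 cannot go. Hepatocyte markers were present and lower in shATXN7L3: summed over ALB, APOA1, APOB, TTR, SERPINA1 and HNF4A they made 161 to 183 CPM in shcontrol and 87.5 to 90.7 CPM in shATXN7L3, and 5 of the 5 tested fell. Of 4 endothelial markers 1 of 2 tested fell (PECAM1), and KDR did not pass (15.5 ± 2.63 against 15.3 ± 0.259 CPM). Their list had a summed level of 57.2 to 62.1 against 42.4 to 44.4 CPM, with CDH5 and VWF near 0. Of 4 leukocyte markers LYZ alone was tested and fell (0.978, 0.644 and 1.14 against 0.258, 0.0830 and 0.167 CPM; summed level of the list 1.06 to 1.56 against 0.415 to 0.879 CPM), with CD3E and PTPRC near 0. Of 4 stellate cell markers LUM alone was tested and fell (26.8, 23.0 and 27.2 against 5.46, 4.73 and 5.48 CPM; summed level of the list 23.2 to 27.6 against 4.98 to 5.90 CPM), with DCN, ACTA2 and PDGFRB near 0. Of 4 cholangiocyte markers, all tested, KRT19 (0.40 ± 0.067) and EPCAM (1.42 ± 0.40, under 1.5 CPM in every library) rose, KRT7 fell (-0.44 ± 0.097) and SOX9 did not pass; their summed level was 86.8 to 105 CPM against 105 to 114 CPM. The call of EPCAM was lost without shcontrol replicate 1 (edgeR adjusted p = 0.0516) or shATXN7L3 replicate 3 (0.0992). The part of these shifts in the results below was not tested. In such bulk libraries, fewer cells of a kind and less RNA per cell cannot be told apart.

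Of the 28 tested members, 10 fell (35.7%), 2 rose (7.14%) and 16 did not pass the test. Across all 17935 tested genes, 24.2% were called: 12.0% of all tested genes were lower and 12.2% were higher (edgeR quasi-likelihood test, Benjamini-Hochberg adjusted p under 0.05). The median log2 fold change was -0.17 over the tested members and 0.01 over all tested genes. Calls followed abundance in both sets: 9 of 10 members with a mean of at least 10 CPM were called against 32.0% of all genes at that level, and 3 of 18 members under it (16.7%) against 15.4%. The control and hairpin libraries did not overlap in 15 of the 28 (12 lower and 3 higher), where 38.3% of all tested genes were separated. The 10 genes that fell summed to 1000.2, 988 and 984 CPM in shcontrol and to 748, 747 and 760 CPM in shATXN7L3. The 2 that rose summed to 171, 179 and 185 against 213, 212 and 213 CPM.

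**Figure D1:**
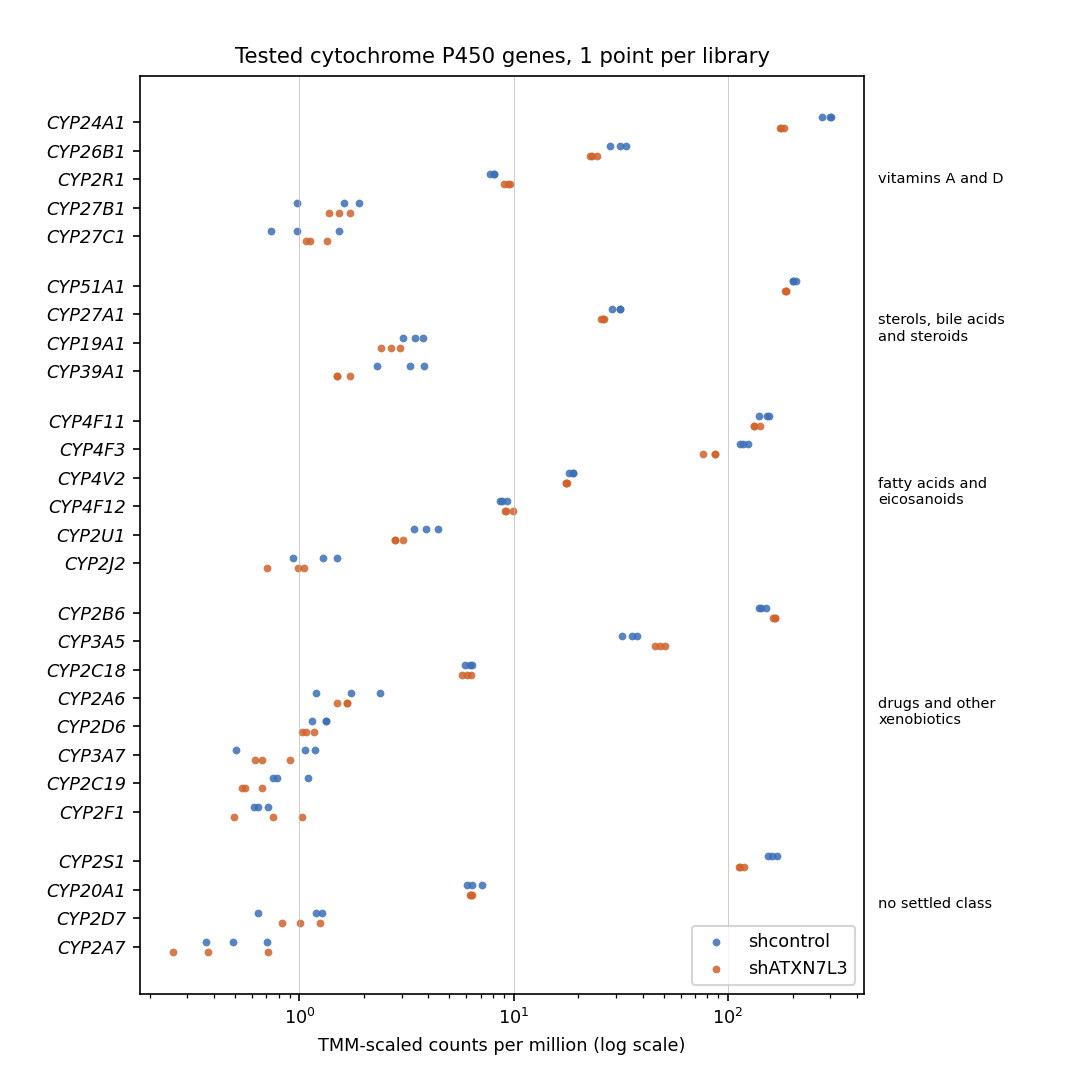
TMM-scaled CPM on a log axis for 27 of the 28 tested genes, 1 point per library, with the 3 shcontrol libraries in blue and the 3 shATXN7L3 libraries in orange, grouped by substrate class. CYP24A1, CYP4F3 and CYP2S1 show separated groups with shATXN7L3 to the left, and CYP3A5 and CYP2B6 with shATXN7L3 to the right.

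Transcript of these genes was concentrated in a few members. Summed over the 43 members, the level was 1235, 1229 and 1237 CPM in shcontrol and 1024, 1020 and 1036 CPM in shATXN7L3. The 6 most abundant members (CYP24A1, CYP51A1, CYP2S1, CYP4F11, CYP2B6 and CYP4F3) held 86.2% of that sum in shcontrol and 83.9% in shATXN7L3. Per kilobase of exon (RPKM, here CPM divided by exonic length), the order of levels in shcontrol was CYP24A1 (73.2 ± 3.85, SD, n = 3), CYP2S1 (55.9 ± 2.94), CYP51A1 (49.6 ± 0.875), CYP2B6 (40.0 ± 1.53), CYP4F11 (36.8 ± 2.07) and CYP4F3 (20.2 ± 0.964). CYP24A1 lay above CYP2S1 in every control library, and each neighbour in this order was separated across the control libraries, the closest being CYP2B6 (38.8 to 41.7) and CYP4F11 (34.4 to 38.3). The level of CYP51A1 includes reads counted for LRRD1 as well, as described with that gene. In shATXN7L3 the top of the order was closer together: CYP2B6 at 45.9 ± 0.557, CYP51A1 at 45.6 ± 0.431, CYP24A1 at 44.8 ± 0.983 and CYP2S1 at 40.0 ± 1.07 RPKM. There the ranges of CYP2B6, CYP51A1 and CYP24A1 overlapped, so those 3 do not differ beyond their spread. The drug-metabolising class was the one whose summed level was higher in shATXN7L3 (194 ± 7.65 against 225 ± 0.851 CPM). That sum was mostly CYP2B6 and CYP3A5: of the 9 tested drug P450s, 3 had a positive and 6 a negative log2 fold change, with a median of -0.14. The vitamin class went from 332 ± 12.4 to 214 ± 4.19 CPM, a sum mostly of CYP24A1, while 3 of its 5 tested members had a positive log2 fold change and the median was 0.05. The summed level of the fatty acid class went from 299 ± 11.8 to 249 ± 9.75 CPM, mostly CYP4F11 and CYP4F3. That of the sterol class went from 239 ± 3.61 to 216 ± 1.63 CPM, mostly CYP51A1 (202 against 186 CPM). That of the genes without a settled class went from 169 ± 8.88 to 123 ± 2.97 CPM, mostly CYP2S1 (161 against 115 CPM). The other tested genes without a settled class were not called.

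**Figure D2:**
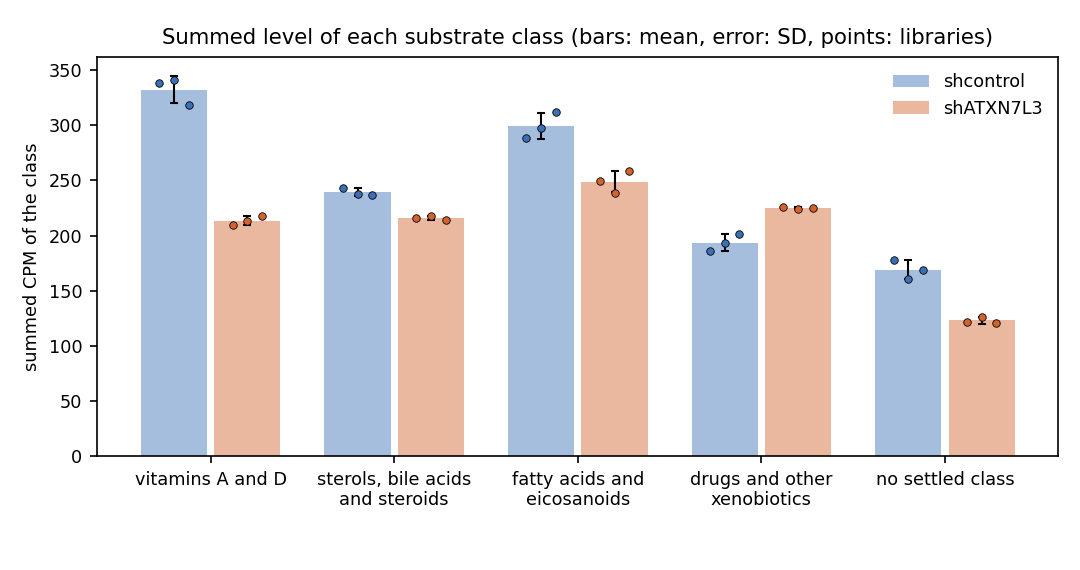
Summed TMM-scaled CPM of each substrate class (bars, mean; error bars, SD; points, the 3 libraries of each group). The drug class is higher in shATXN7L3 and the other 4 are lower, the vitamin class by the widest margin (332 against 214 CPM). Most of the vitamin sum is CYP24A1, of the sterol sum CYP51A1 and of the sum without a settled class CYP2S1.

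Among the P450s that oxidise drugs and other foreign compounds, the 2 with the highest level rose. CYP3A5, a CYP3A enzyme that shares many drug substrates with CYP3A4 (chromosome 7, 99648194 to 99679998, minus strand, GRCh38), stood at 31.9, 37.5 and 35.4 CPM in shcontrol and at 48.1, 45.5 and 50.6 CPM in shATXN7L3. Every hairpin library lay above every control library. The log2 fold change was 0.46 ± 0.061 (SE), or 138% of the control level (126% to 150% at ± 2 SE; edgeR adjusted p = 1.32e-05). CYP2B6, which metabolises bupropion and efavirenz (chromosome 19, 40991299 to 41018398, plus strand), stood at 139, 142 and 149.8 CPM in shcontrol and at 165, 166 and 162 CPM in shATXN7L3. Its groups were separated as well, by a smaller margin (0.20 ± 0.044, edgeR adjusted p = 0.00252). CYP2B6 shares 9.99% of the 50-base words of its longest coding transcript with other genes, nearly all with CYP2B7P, its pseudogene copy nearby. CYP2B7P, named here after its values were seen, moved in the opposite direction (mean of 121 CPM in shcontrol against 89.0 CPM in shATXN7L3, -0.45 ± 0.050), so reads placed between these copies make the smaller change of CYP2B6 uncertain. CYP3A5 and CYP2B6 are classic targets of the xenobiotic receptor PXR. The gene of that receptor, NR1I2, was lower in the same libraries (8.0, 6.12 and 7.69 CPM against 5.20, 4.65 and 4.48 CPM). NR1I3, another listed regulator of P450 genes, named after its values were seen, did not pass (2.22 against 2.51 CPM, edgeR adjusted p = 0.516). The activity of these receptors was not tested.

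A further 6 tested drug P450s did not pass. CYP2C19, which activates clopidogrel, held 17, 17 and 25 counts against 13, 13 and 16, with groups that did not overlap (-0.57 ± 0.28, edgeR adjusted p = 0.153). CYP2C18, a neighbour in the same cluster, had 5.89 to 6.37 CPM in shcontrol and 5.73 to 6.31 CPM in shATXN7L3, and the ranges overlapped. Both share exon bases on the same strand with the read-through gene RP11-400G3.5 (52.1% of CYP2C19 and 38.5% of CYP2C18), so reads in those bases cannot be told apart between the genes. The nicotine oxidase CYP2A6 (1.20 to 2.37 against 1.51 to 1.67 CPM), the codeine-activating CYP2D6 (1.14 to 1.33 against 1.03 to 1.17 CPM), the fetal enzyme CYP3A7 (0.506 to 1.19 against 0.622 to 0.903 CPM) and the lung enzyme CYP2F1 (0.615 to 0.711 against 0.498 to 1.03 CPM) were all near 1 CPM with overlapping groups. Sequence shared with other genes makes all of them uncertain. For CYP2F1, 20% of the words occur in another gene, CYP2F2P. Of the words of CYP2A6, 39.8% occur in another gene, as do 40.7% of those of CYP2D6 and 75.3% of those of CYP3A7. For CYP3A7 that gene is CYP3A7-CYP3A51P, which covers 42.65% of its exon bases on the same strand. CYP3A4, the main drug oxidase of adult liver, held 8, 10 and 4 counts in shcontrol and 5, 6 and 3 in shATXN7L3 and was under the filter.

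Promoter sequence is shown for both genes that rose and for CYP2S1 and CYP39A1, described further on. Those 2 are taken from the 6 that fell in every alternative run. Each line gives the 250 bases before the RefSeq start (build GRCh38.p14), in the direction of the gene. Capitals mark nuclear receptor half-sites, searched on both strands as AGGTCA, as AGTTCA, as GGGTCA and as GGTTCA, words that receptors such as PXR read in pairs. Of the 28 tested members, 20 were matched to a RefSeq promoter, CYP24A1 not among them. The matched start lay far from the gene start in the count table for CYP4F3 (25695 bases), CYP19A1 (20113) and CYP51A1 (8475).
CYP3A5: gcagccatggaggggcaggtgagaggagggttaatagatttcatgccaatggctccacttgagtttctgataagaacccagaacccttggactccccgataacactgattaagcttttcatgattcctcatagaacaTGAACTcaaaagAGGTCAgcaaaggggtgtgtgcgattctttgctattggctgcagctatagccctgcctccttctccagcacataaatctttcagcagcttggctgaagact
CYP2B6: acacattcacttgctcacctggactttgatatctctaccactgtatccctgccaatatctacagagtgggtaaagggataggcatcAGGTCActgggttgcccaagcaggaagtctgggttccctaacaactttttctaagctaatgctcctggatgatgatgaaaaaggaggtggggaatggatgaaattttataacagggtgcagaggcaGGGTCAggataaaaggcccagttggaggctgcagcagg
CYP2S1: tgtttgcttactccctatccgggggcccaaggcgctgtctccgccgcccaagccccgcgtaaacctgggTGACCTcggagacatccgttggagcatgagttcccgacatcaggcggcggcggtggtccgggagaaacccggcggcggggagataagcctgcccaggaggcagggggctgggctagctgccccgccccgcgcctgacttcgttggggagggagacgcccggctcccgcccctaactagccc
CYP39A1: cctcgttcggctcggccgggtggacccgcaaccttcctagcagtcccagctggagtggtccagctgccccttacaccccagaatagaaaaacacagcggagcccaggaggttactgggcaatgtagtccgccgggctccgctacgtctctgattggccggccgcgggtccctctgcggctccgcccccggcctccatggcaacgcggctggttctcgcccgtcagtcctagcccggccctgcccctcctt
The windows are chr7:99679997-99680246 (minus strand), chr19:40991032-40991281 (plus), chr19:41192969-41193218 (plus) and chr6:46652819-46653068 (minus). CYP3A5 carries 2 half-sites in opposite orientation, starting 113 and 101 bases before the start, the everted arrangement known from CYP3A promoters. CYP2B6 carries 2 at 164 and 38 bases, CYP2S1 carries 1 at 181 bases, and CYP39A1 has none of these letters in the window. At least 1 half-site was found in 2 of 2 matched members that rose, 2 of 8 that fell and 7 of 10 that did not pass, and in 33.8% of the 35116 RefSeq promoters of that length. The GC box GGGCGG was found in 0 of 2, 5 of 8 and 5 of 10, and in 42.6% of all promoters. These are matches of letters, not sites shown to be bound.

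**Figure D3:**
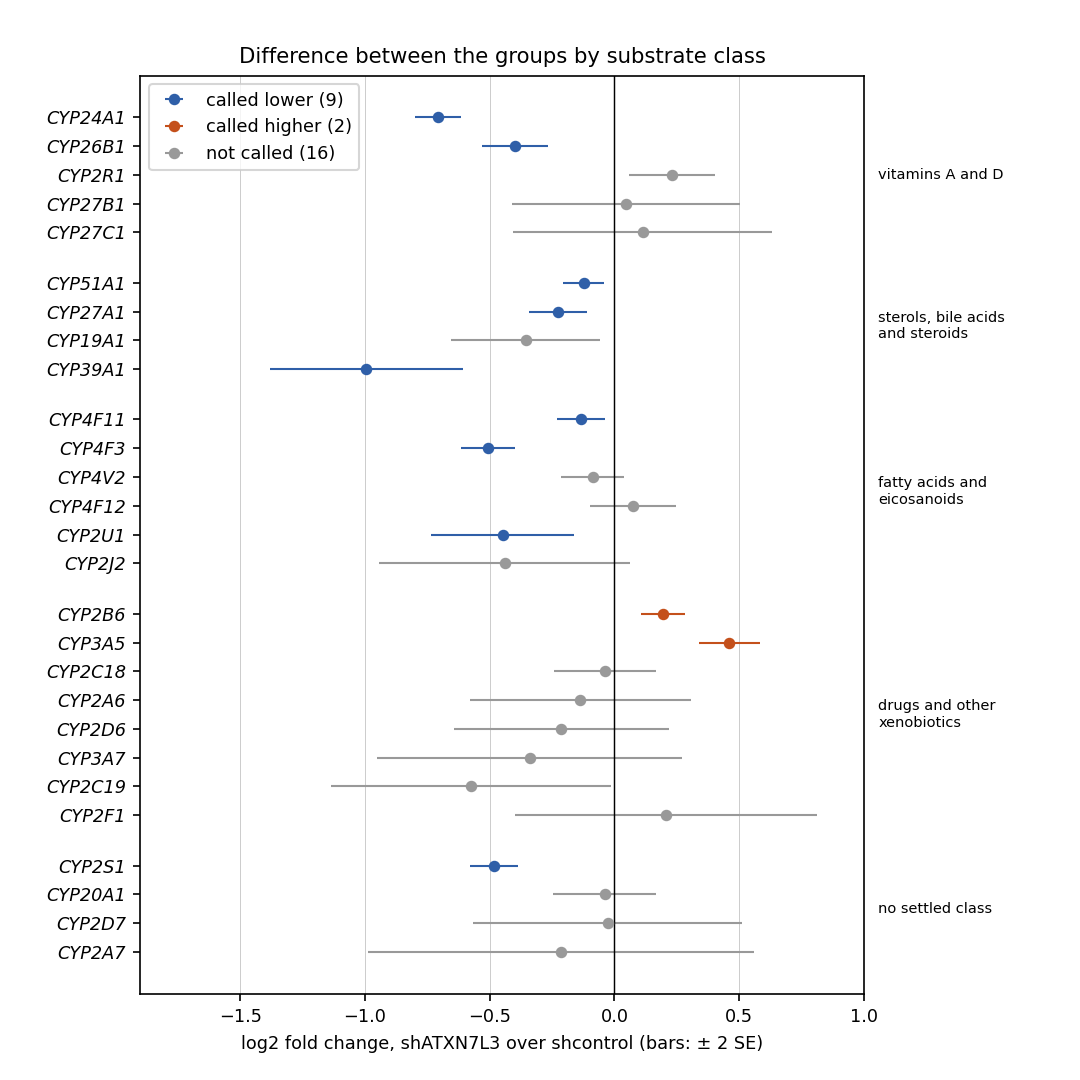
Log2 fold change of shATXN7L3 over shcontrol for 27 of the 28 tested genes by substrate class, with bars of ± 2 SE. Blue points are 9 of the 10 genes called lower, orange the 2 called higher and grey the 16 not called, whose bars are widest for genes near 1 CPM.

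Of the 5 tested P450s of vitamins A and D, 2 fell and 0 rose, where 12.0% of all tested genes fell and 12.2% rose. CYP24A1, the mitochondrial hydroxylase that inactivates the hormone form of vitamin D (chromosome 20, 54153449 to 54173973, minus strand), was the most abundant member of all. It stood at 297, 302 and 273 CPM in shcontrol and at 175, 177 and 182 CPM in shATXN7L3. The groups were far apart, with the lowest control library 91.2 CPM above the highest hairpin library. The log2 fold change was -0.71 ± 0.046, which is 61.2% of the control level (57.4% to 65.3% at ± 2 SE; edgeR adjusted p = 8.80e-10). CYP26B1, which clears retinoic acid (chromosome 2, 72129238 to 72148038, minus strand), stood at 31.2, 28.2 and 33.5 CPM against 22.8, 24.6 and 23.2 CPM. These groups were separated too (-0.40 ± 0.066, edgeR adjusted p = 1.43e-04).

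The enzymes that make active vitamin D did not pass the test. CYP2R1, the vitamin D 25-hydroxylase of the liver, read 8.04, 8.06 and 7.78 CPM in shcontrol and 9.59, 9.04 and 9.37 CPM in shATXN7L3. Every hairpin library was above every control library, but the adjusted p was 0.0594 (edgeR, log2 fold change 0.23 ± 0.086), and 0.0265 with scaling by library size alone. CYP27B1, the 1-alpha-hydroxylase, read 0.978, 1.61 and 1.89 CPM against 1.38, 1.53 and 1.72 CPM. CYP27C1, a retinol desaturase of skin, read 0.978, 0.736 and 1.54 CPM against 1.08, 1.12 and 1.34 CPM. In both, the control libraries spread more widely than the groups differed. CYP27B1 shares 3.11% of its exon bases with METTL1 on the same strand. The retinoic acid hydroxylase CYP26A1 held at most 1 count in a library.

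Genes around these enzymes were taken from a list of 15 vitamin A and D handling genes. Of the 9 tested, 3 fell and 2 rose (55.6% called, against 24.2% of all tested genes). ALDH1A1, which makes retinoic acid, fell (-0.78 ± 0.043) and so did the retinal reductase DHRS3 (-0.24 ± 0.063). The retinoic acid carrier CRABP2 (0.83 ± 0.086) and the retinol receptor STRA6 (0.35 ± 0.060) rose. VDR, the vitamin D receptor that drives CYP24A1, is named here after its values were seen: it read 2.00, 2.81 and 2.81 CPM in shcontrol and 1.81, 1.41 and 2.34 CPM in shATXN7L3, with overlapping groups (edgeR adjusted p = 0.109). It passed without shcontrol replicate 1 (0.0302) or shATXN7L3 replicate 3 (0.0462).

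Of the 4 tested P450s of sterols, bile acids and steroids, 3 fell and 0 rose. Over all tested genes, 12.0% fell and 12.2% rose. In all 4 the groups were separated with shATXN7L3 lower, where 38.3% of all tested genes were separated in either direction. CYP39A1, the 7-alpha-hydroxylase of 24-hydroxycholesterol (chromosome 6, 46549580 to 46652830, minus strand), had the largest log2 difference among the tested members. It held 52, 83 and 75 counts in shcontrol and 35, 36 and 41 in shATXN7L3, or 2.31, 3.82 and 3.30 CPM against 1.51, 1.49 and 1.72 CPM. The control libraries spread more than the hairpin libraries and none reached down to them. The log2 fold change was -0.99 ± 0.19, or 50.2% of the control level (38.4% to 65.6% at ± 2 SE; edgeR adjusted p = 7.13e-04). CYP27A1, the mitochondrial sterol 27-hydroxylase of the acidic bile acid pathway (chromosome 2, 218781749 to 218815293), stood at 31.3, 31.4 and 28.6 CPM against 25.6, 26.4 and 25.9 CPM. The difference was small and separated (-0.23 ± 0.058, edgeR adjusted p = 0.00660).

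CYP51A1, the lanosterol demethylase of cholesterol synthesis (chromosome 7, 92112151 to 92142952), had 206, 199.8 and 200.7 CPM against 187, 186 and 184 CPM. The groups were separated by a narrow gap (-0.12 ± 0.042, edgeR adjusted p = 0.0351). The call was lost with scaling by library size alone (adjusted p = 0.157), without a filter (0.0662), and without shcontrol replicate 1 (0.0596), shcontrol replicate 2 (0.0622), or replicate 1, 2 or 3 of shATXN7L3 (0.111, 0.0968 and 0.150). Of its exon bases, 78.8% lie in exons of LRRD1 on the same strand, and the counts of that gene were nearly equal (4205 to 4502 per library against 4340 to 4643), so the reads of these genes cannot be told apart. CYP19A1, the aromatase that makes oestrogens, read 3.47, 3.04 and 3.78 CPM against 2.41, 2.95 and 2.68 CPM and did not pass (-0.36 ± 0.15, edgeR adjusted p = 0.0922).

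The steroidogenic members were at or near 0: CYP17A1 held 2, 1 and 1 counts in shcontrol and 0 in each shATXN7L3 library, CYP21A2 held 2 counts in all, and CYP11B1 held 1. A group sum of 0 allows up to 3 counts, so no difference was detectable for them at this depth. CYP7A1, CYP7B1, CYP8B1 and CYP11B2 of this class have no row in the count table and so could not be analysed. The same holds for CYP4A11, CYP4B1, CYP4F8, CYP4F22, CYP4X1 and CYP26C1 of other classes. No gene of that table is at 0 in every library. Among 16 other bile acid genes, 13 were tested, 4 fell and 3 rose (53.8% called, against 24.2% of all tested genes). The conjugating enzyme BAAT (-0.94 ± 0.056), the receptor FGFR4 (-0.41 ± 0.056) and the carrier SCP2 (-0.31 ± 0.053) were lower, and the sterol dehydrogenase HSD3B7 (0.49 ± 0.067) was higher.

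Of the 6 tested P450s of fatty acids and eicosanoids, 3 fell and 0 rose, where 12.0% of all tested genes fell and 12.2% rose. CYP4F3, an omega-hydroxylase of leukotriene B4 and fatty acids (chromosome 19, 15615617 to 15662825, plus strand), stood at 117, 113 and 124 CPM in shcontrol and at 86.5, 76.3 and 86.6 CPM in shATXN7L3. The groups did not overlap (-0.51 ± 0.054, 70.3% of the control level, edgeR adjusted p = 8.18e-07). CYP4F11, its neighbour that hydroxylates long fatty acids and vitamin K, stood above it in every control library and differed less between the groups, with 139, 151 and 154 CPM against 132, 132 and 140.1 CPM. Its ranges overlapped, and the adjusted p was 0.0495 (log2 fold change -0.13 ± 0.048). That call was lost with DESeq2 (adjusted p = 0.0657), with library size alone (0.200), and without shcontrol replicate 2 (0.158) or 3 (0.0981) or any one shATXN7L3 replicate (0.190, 0.176 and 0.0670 without replicates 1, 2 and 3). CYP4F12, in the same cluster, read 8.62 to 9.32 CPM against 9.13 to 9.92 CPM and did not pass. Transcripts of CYP4F3 share 9.88% of their words with other genes, mostly CYP4F2, which itself held 1 to 5 counts per library. CYP4F11 shares 0.996% and CYP4F12 4.36%.

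CYP2U1, an arachidonic acid hydroxylase, read 4.44, 3.91 and 3.43 CPM against 3.05, 2.78 and 2.80 CPM. The groups were separated and the gene was called (-0.45 ± 0.14, edgeR adjusted p = 0.0271). Exons of 2 other genes on the opposite strand cover 2.44% and 6.17% of its exonic bases, and no source used here states whether counting used the strand. The call was lost with DESeq2 (0.106), without shcontrol replicate 1 (0.119) or 2 (0.0651), and without shATXN7L3 replicate 2 (0.0875) or 3 (0.0840). CYP2J2, the epoxygenase of arachidonic acid, read 0.933, 1.29 and 1.49 CPM against 0.989, 0.705 and 1.05 CPM, with overlapping groups. CYP4V2, the fatty acid hydroxylase mutated in Bietti crystalline dystrophy, read 18.2, 18.8 and 19.0 CPM against 17.6, 17.5 and 17.6 CPM, a narrow separation that did not pass (-0.09 ± 0.063, edgeR adjusted p = 0.350).

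Among P450s without a settled substrate class, CYP2S1 fell (chromosome 19, 41193049 to 41207539, plus strand). This enzyme, found mostly in epithelia, read 169.6, 153 and 159 CPM in shcontrol and 114, 118 and 113 CPM in shATXN7L3. Every hairpin library was below every control library (-0.48 ± 0.047, 71.6% of the control level, edgeR adjusted p = 3.07e-07). CYP20A1, an orphan P450, read 6.03 to 7.07 CPM against 6.24 to 6.39 CPM. CYP2D7 (0.644 to 1.27 against 0.830 to 1.25 CPM) and CYP2A7 (0.368 to 0.703 against 0.258 to 0.711 CPM), near copies of CYP2D6 and CYP2A6, overlapped between groups and share 36.4% and 27.1% of their words with other genes.

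**Figure D4:**
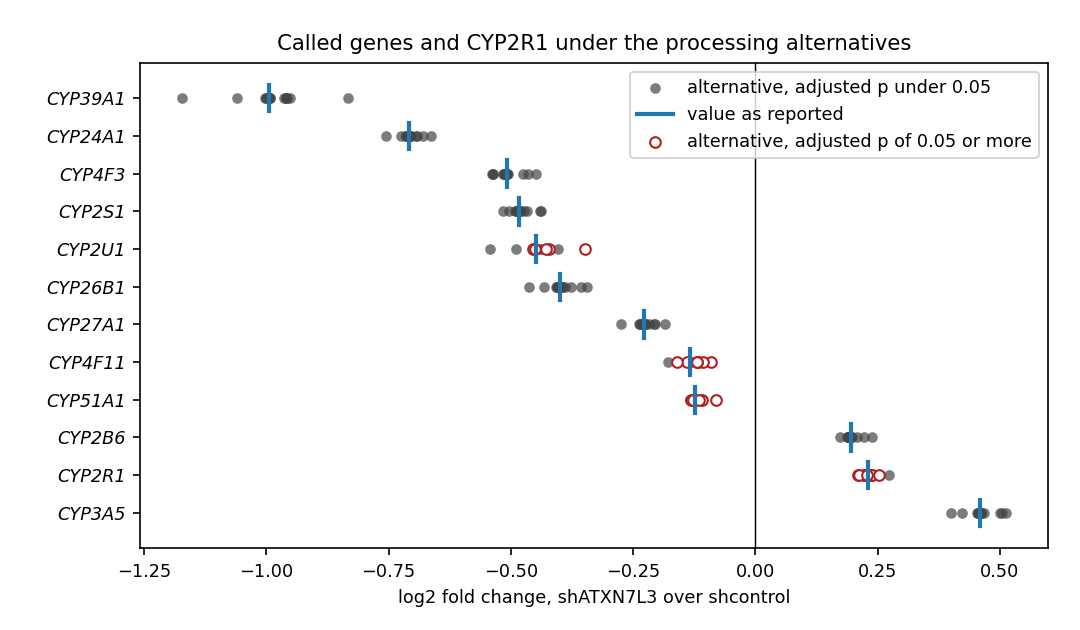
Log2 fold change of 11 of the 12 called genes and CYP2R1 as reported (blue bar) and under the alternatives (points, 15 per gene and 14 for CYP51A1), filled where the adjusted p was under 0.05 and open where it was not. CYP39A1, CYP24A1, CYP4F3, CYP2S1, CYP26B1, CYP27A1, CYP2B6 and CYP3A5 have filled points only.

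Of the 12 called members, 8 kept their call in all 15 alternatives, 6 of them lower and 2 higher, and 4 lost it at least once, CYP2U1, CYP4F11 and CYP51A1 among them. The log2 fold change of CYP24A1 ran from -0.75 to -0.66 over the alternatives, that of CYP39A1 from -1.17 to -0.83 and that of CYP3A5 from 0.40 to 0.51. The narrowest of the kept calls was that of CYP27A1, with an adjusted p of up to 0.0381.

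The remaining 15 members were under the filter on low counts, with 0 to 11 counts per library. Summed over a group, none held more than 28 counts. Their directions are given without a share over all genes under the filter, so they are not read as a fall. Of the 15 members, 12 had more counts in shcontrol, 2 more in shATXN7L3 and 1 as many in both. The highest were CYP2C8, which metabolises paclitaxel (11, 9 and 8 counts against 8, 5 and 4), CYP2W1, found in fetal gut and in tumours (8, 9 and 8 against 5, 8 and 4), and the ethanol-inducible CYP2E1 (9, 7 and 8 against 5, 3 and 4). CYP3A43, CYP2A13, CYP4A22, CYP46A1, CYP11A1 and CYP4Z1 held 6 counts or fewer in every library. With no filter, edgeR called 0 of the 15, and 1 (CYP2E1) had an unadjusted p under 0.05 (0.0418; adjusted p = 0.210).

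P450s depend on partners that bring electrons. Of the 9 tested genes of that list, 3 fell and 0 rose (33.3% called, against 24.2% of all tested genes). POR, the reductase that serves the microsomal members, stood at 227, 209 and 217 CPM in shcontrol and at 167, 173 and 174 CPM in shATXN7L3 (-0.34 ± 0.045, edgeR adjusted p = 1.04e-05). CYB5B and CYB5A, the outer mitochondrial and microsomal forms of cytochrome b5, fell by 0.39 and 0.33 on the log2 scale. The call of CYB5A was lost without shcontrol replicate 3 (edgeR adjusted p = 0.0644) or shATXN7L3 replicate 1 (0.0528). Ferredoxin FDX1 and its reductase FDXR, which serve the mitochondrial members CYP24A1, CYP27A1 and CYP27B1 and are named after their values were seen, did not pass (0.01 ± 0.092 and 0.21 ± 0.13). In haem synthesis and breakdown, 3 of 12 genes rose and 1 fell (33.3% called, against the same 24.2%). FECH, which inserts the iron, fell (-0.28 ± 0.055), and the biliverdin reductase BLVRB (0.31 ± 0.067) and the synthesis enzyme UROD (0.29 ± 0.068) rose. Of 22 tested regulators of P450 genes, 5 fell and 1 rose, a share called (27.3%) near the 24.2% of all tested genes. Besides NR1I2 (-0.61 ± 0.12), the hepatocyte factors HNF4A (-0.38 ± 0.054) and CEBPA (-0.44 ± 0.069) were lower, and the orphan receptor NR5A2, a regulator of bile acid synthesis, was higher (1.46 ± 0.185 against 4.28 ± 0.355 CPM).

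P450s that the symbol rule leaves out were set beside the members. TBXAS1, the thromboxane synthase, fell (50.1 ± 2.49 to 38.5 ± 0.609 CPM), and PTGIS, the prostacyclin synthase, named after its values were seen, did not pass (3.65 against 3.38 CPM). Of the 4 tested, 3 fell, where 12.0% of all tested genes fell. CYP1A1 read 5.87, 2.16 and 14.1 CPM in shcontrol against 0.903, 0.996 and 0.962 CPM (-2.95 ± 0.49, edgeR adjusted p = 0.000151), and the log2 fold change was -2.08 without shcontrol replicate 3, the highest library. CYP1B1 read 173, 97.5 and 246 CPM in shcontrol against 73.0, 77.2 and 77.6 CPM. The ratio of SD to mean over the control libraries was 82.7% for CYP1A1 and 43.2% for CYP1B1. It was at most 8.60% for the 10 members with a mean of at least 10 CPM. In tested members under that level it reached 39.5% (CYP3A7), and CYP1A1 itself averaged 7.36 CPM in shcontrol.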

How the data were processed

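The deposited table of the series holds raw read counts per gene symbol, 1 column per library. GRCh38 is the build, and STAR 2.5.3a, Trimmomatic 0.36, Subread 1.5.1 with featureCounts, and edgeR 3.12.1 are the tools, in the submitters' processing notes. Per the labels' protocols, Trizol was used for extraction and poly-A RNA was selected. For the annotation release, the strand setting and multi-mapped reads, the sources used here give nothing. Reads in exons common to several genes, or in near-identical copies, therefore leave values uncertain. Genes were kept with filterByExpr (minimum count 10, minimum total 15), scaled by TMM and compared with the quasi-likelihood test of edgeR 4.0.16 in R 4.3.3, with group alone in the model. The threshold was a Benjamini-Hochberg adjusted p of 0.05 over 17935 genes. Each SE is approximate: the absolute log2 fold change over the root of F. The procedure was also run on simulated counts with far fewer changed genes than were called here. That run checks the code and not the spread of these libraries. Shared words are 50-base stretches of the longest coding GENCODE 29 transcript found in transcripts of another gene. For CYP2D7 the longest transcript of any type was used, coding or not. Alternatives used DESeq2 1.42.0 and limma 3.58.1 (voom), other scalings and filters, the replicate number as a block, and each library left out in turn. Members and gene lists were chosen with earlier results of these data known. Every tested member is named apart from an item not reported here, which stays in the counts and sums, and of each other list up to 4 genes past the threshold with the smallest p.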

Additional observations from a re-analysis of the deposited data

How the results depend on the processing

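The counts of members called stayed at 2 or 3 higher and 7 to 10 lower over the 15 alternatives, and no called member turned direction. Over all tested genes, DESeq2 called 1405 higher, against 2182 as reported, and library size alone gave 2955 higher and 1604 lower (64.8% of calls higher against 50.4%), with a median log2 fold change of all genes of 0.05 against 0.01. Among the 16 members that did not pass, 8 changed sign at least once. With library size alone the log2 fold change was 0.0055 for CYP2C18, 0.0031 for CYP20A1 and 0.0157 for CYP2D7, and with limma voom 0.0117 for CYP2D7. Leaving out 1 library in turn, the log2 fold change ran from -0.18 to 0.25 for CYP27B1, from -0.27 to 0.14 for CYP2D7, from -0.0943 to 0.45 for CYP27C1, from -0.35 to 0.13 for CYP2A6, from -0.71 to 0.0593 for CYP2A7, from -0.0883 to 0.0239 for CYP20A1 and from -0.0699 to 0.44 for CYP2F1. For FDX1, outside the members, it ran from -0.0618 to 0.10. The cause was not tested. The means of the 8 members that changed sign lay between 0.448 and 6.49 CPM. Under the stricter filter (at least 1 CPM in at least 3 libraries) and after genes sharing same-strand exons were removed, some members had no value, CYP51A1 among the latter. The fit with the replicate number as a block called 2 members higher and 10 lower and gave -0.88 for ATXN7L3, with 2188 genes higher and 2140 lower. Same-numbered libraries did not deviate together (correlations of -0.02 to 0.04 across genes), and differently numbered ones gave -0.07 to 0.07. With 3 libraries per group this cannot decide whether the numbers pair the samples, and the labels do not say. Of the 3 control libraries, 1 correlated best with its own number.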
